A study of Mus musculus with 4 samples.

Results

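Glycolysis and pyruvate metabolism were followed in MC38 cells through 36 genes, chosen by symbol for their known function from the 26322 genes in the table, with Pkm as the marker of the pathway. MC38 is a mouse colon carcinoma cell line, labelled colorectal cancer. The cells had been electroporated with Cas9 protein carrying a non-targeting guide (sgNT, labelled WT, n = 2 libraries) or a guide against Cbfb (sgCbfb, labelled CbfbKO, n = 2 libraries), so that both groups had received Cas9. Cbfb encodes CBFβ, the partner subunit through which RUNX transcription factors bind DNA stably. At least 1 week passed before the cells were collected for RNA. Whether the cells were a pool or a clone, and whether the replicates came from separate cultures, is not given in the sources used here, so p-values measure only the spread between these samples, which may be technical. The authors left out a further replicate of each group for its RNA quality.

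In glycolysis, glucose enters the cell through GLUT transporters, is phosphorylated by hexokinase and is split into triose phosphates by the upper part of the pathway. The lower part turns triose phosphates into pyruvate and yields ATP. Pyruvate is then reduced to lactate and exported, as tumour cells commonly do even with oxygen present, or it is carried into mitochondria and oxidised by the pyruvate dehydrogenase complex. Phosphofructokinase is the main regulated step, and it is activated by fructose 2,6-bisphosphate, the product of the PFKFB enzymes.

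The libraries held 3189035 to 3907936 reads, so that 1 read was worth 0.256 to 0.314 CPM (reads of a gene scaled to a library total of 1e6). Cbfb, the targeted gene, had 295 and 285 reads in sgNT and 125 and 125 in sgCbfb, a log2 fold change of -1.27 (SE 0.12, adjusted p = 1.76e-07 by limma with Benjamini-Hochberg adjustment). The RNA of the target was thus lower but still present, at 41.5% of sgNT. RNA reads do not measure protein, and the paper reports deletion of CBFβ in MC38 cells by immunoblot. Without the first or the second sgCbfb library the log2 fold change was -1.12 or -1.41 with adjusted p = 0.267 and 0.193 by limma, a fit in which the lone sgCbfb library is assumed to vary like the sgNT ones. The 10 colon epithelium markers summed to only 5 to 7 reads per library, with Krt18, Vil1, Cdx1 and Lgals4 at 0 in all 4, so the epithelial markers of colon carcinoma were absent or near 0 in these cells. Markers of immune and endothelial cells (10 genes) summed to 1 or 2 reads per library, and 7 of them were at 0 throughout. Reads of ribosomal Rn45s were 13.9% and 13.1% of the total in sgNT and 11.3% and 13.0% in sgCbfb, and their part in the results below was not tested.

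No gene of the pathway passed the main test between sgNT and sgCbfb, and most were bounded closely. Of the 36 genes, 34 passed the filter on low values (2 or more libraries with a log2 CPM no lower than 0), and 0 were called higher and 0 lower by limma at an adjusted p under 0.05. Across all 12207 tested genes 2.83% were called, 1.57% higher and 1.25% lower in sgCbfb. At an unadjusted p under 0.05 there were 7 of 34 (20.6%, 4 higher and 3 lower), against 14.9% of all tested genes. The groups did not overlap for 17 of 34 (50%, 12 higher and 5 lower), against 44.1% of all tested genes, so these shares lie near the background. Pkm had the smallest p-value of the members, and it missed the threshold in the limma test. It passed the threshold in 4 of 12 alternative fits described below, among them those with voom, which the paper names for its own test.

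The summed RNA of the pathway overlapped between the groups. The 36 genes took 0.626% and 0.615% of all reads in sgNT and 0.626% and 0.616% in sgCbfb. Without the Rn45s reads in the total, these shares were 0.727% and 0.708% in sgNT and 0.705% and 0.709% in sgCbfb. The median log2 fold change of the 34 tested members was 0.067, beside 0.039 for all tested genes, and single values ran from -0.33 to 0.51. Of the 34, 23 were positive (67.6%) and 11 negative, beside 6958 positive of all 12207 tested genes (57.0%). The 95% confidence interval of the fold change lay within 1.5-fold either way for 22 members (64.7%, against 48.9% of all tested genes) and within 2-fold for 32 (94.1%, against 72.6%). The exceptions to the latter were Aldoc and Pdk2, both with at most 13 reads per library. Intervals are narrower for abundant genes, and the members were not matched in level to all tested genes. The shares of narrow intervals thus do not by themselves show that the pathway was steadier.

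**Figure D1:**
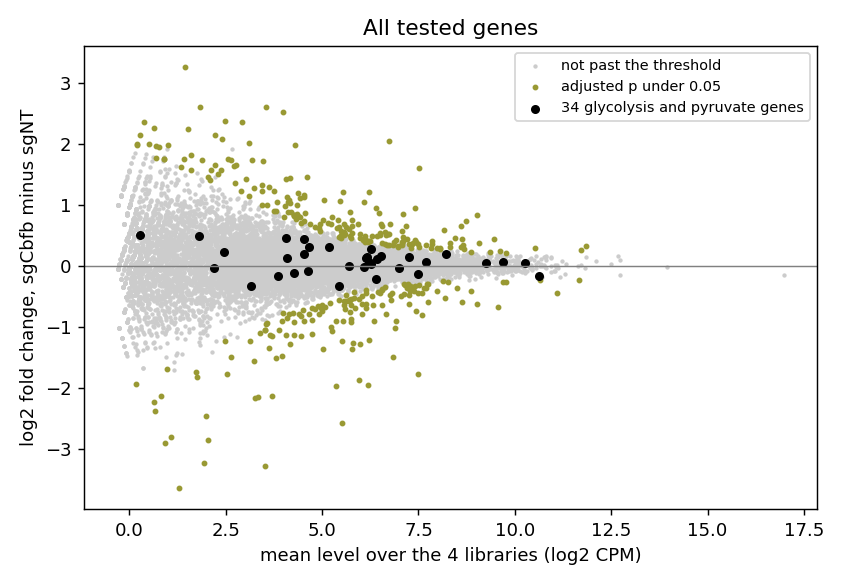
Each point is a tested gene, with its mean log2 CPM over the 4 libraries on the x axis and its log2 fold change (sgCbfb minus sgNT) on the y axis. Genes with an adjusted p under 0.05 are olive, other genes grey, and the 34 tested members black. The members lie between -0.33 and 0.51, inside the cloud of the 12207 genes, with Pkm among the highest in level.

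The members differed widely in level. Because the libraries were primed at the 3′ end, a transcript gives about the same number of reads whatever its length. CPM can thus be set side by side between genes, but only roughly. Transcript ends shared with other genes, as for Gapdh and Eno1, disturb the comparison. The annotation used and the handling of strand, which are not given in the sources used here, can also change values. The 5 genes highest in counted reads, Pkm, Pgam1, Aldoa, Ldha and Tpi1, held 73.5% and 73.4% of the members' reads in sgNT and 72.4% and 72.7% in sgCbfb. Pkm stood first, at 1697 and 1628 CPM in sgNT, and Pgam1, which moves the phosphate of phosphoglycerate, followed at 1231 and 1195 CPM. At the other end, Slc2a3 (the transporter GLUT3) and Eno2 (the neuronal enolase) had 0 reads in all 4 libraries, which allows up to 3 reads in each for counting error alone. Aldoc, an aldolase of brain, had 0 to 6 reads.

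**Figure D2:**
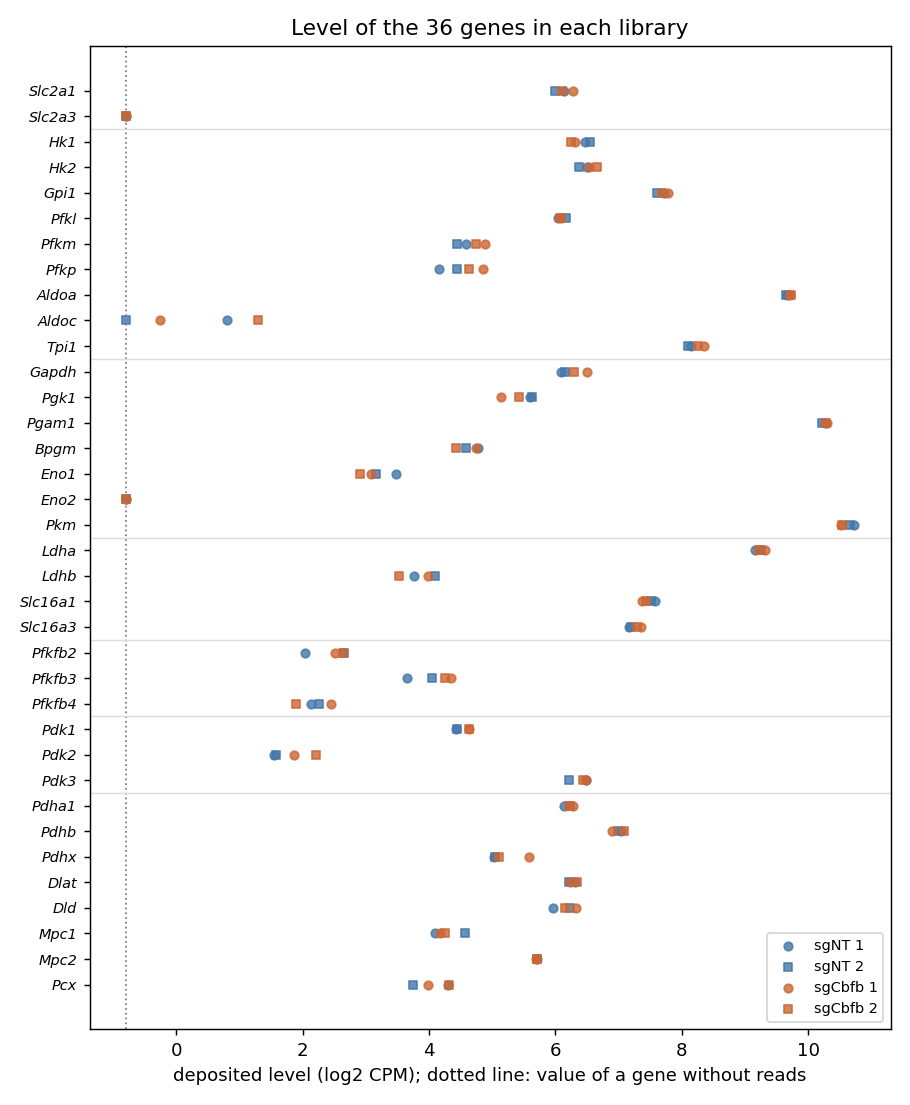
Log2 CPM of each member is shown as deposited, 1 point per library (2 sgNT, 2 sgCbfb), with members grouped by role down the page and the dotted line at the value of a gene without reads. For most genes the 4 points lie close together, while those of Aldoc run from -0.79 to 1.30. The span between genes runs from the floor for Slc2a3 and Eno2 to 10.73 for Pkm.

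**Figure D3:**
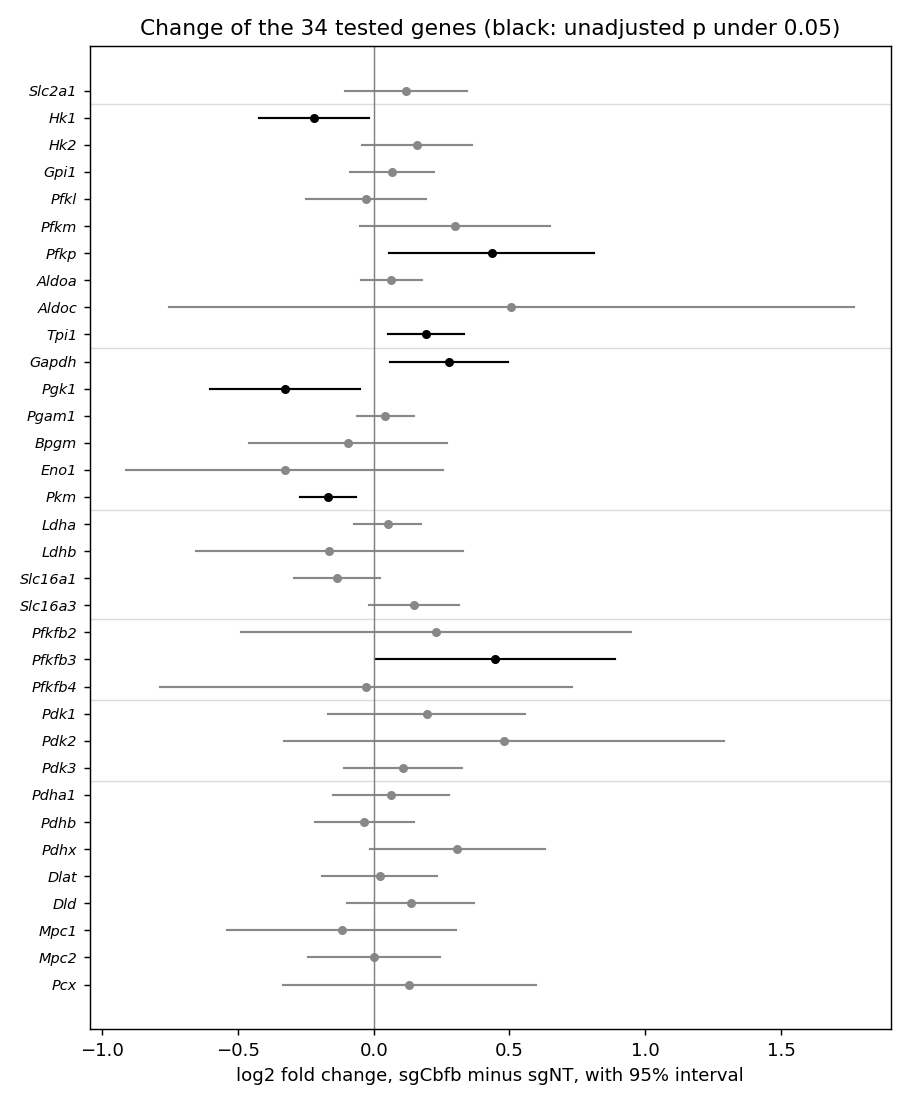
Log2 fold change of each of the 34 tested members, sgCbfb minus sgNT, is drawn with its 95% confidence interval from limma and ordered by role, in black where the unadjusted p was under 0.05. The intervals are narrow for abundant genes such as Pgam1 and wide for Aldoc, whose interval runs from -0.76 to 1.77.

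The promoters of 3 genes are printed here because CBFβ acts through RUNX factors and because these 3 had unadjusted p-values under 0.05. Hk1 and Pfkp hold the RUNX core letters TGTGGT or its reverse complement ACCACA, and Pgk1 holds none but has the hypoxia-response core ACGTG or CACGT, known from glycolytic genes. Hk1 and Pfkp were picked for print because they hold the RUNX core. The other members with an unadjusted p under 0.05 by limma were Pkm, Tpi1, Gapdh and Pfkfb3. They held no RUNX core in any promoter searched and are not printed. The hypoxia-response core is not particular to Pgk1, since Pkm, Gapdh and Pfkfb3 also held it in a promoter searched, while Tpi1 did not. The Hk1 window with the RUNX core held it too, though not within the printed bases. Each run is the 250 bases before a transcription start of the gene in RefSeq on GRCm38.p6, 5′ to 3′ on the gene's strand, with the matched letters in capitals. The Hk1 start used lies inside the gene's annotated locus, which has several starts, and was taken because it holds the RUNX core. The other Hk1 start searched, at the 5′ end of the locus, held no RUNX core.

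Hk1, chr10:62340422-62340671, minus strand: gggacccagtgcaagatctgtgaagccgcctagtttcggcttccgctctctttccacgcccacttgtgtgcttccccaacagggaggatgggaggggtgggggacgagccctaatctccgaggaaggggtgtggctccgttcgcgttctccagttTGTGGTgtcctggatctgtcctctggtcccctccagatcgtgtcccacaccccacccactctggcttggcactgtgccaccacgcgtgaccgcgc
Pfkp, chr13:6648772-6649021, minus strand: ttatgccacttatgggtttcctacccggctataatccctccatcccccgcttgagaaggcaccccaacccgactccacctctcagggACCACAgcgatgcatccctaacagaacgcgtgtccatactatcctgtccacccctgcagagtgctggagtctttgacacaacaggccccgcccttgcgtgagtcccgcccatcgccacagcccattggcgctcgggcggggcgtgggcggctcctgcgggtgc
Pgk1, chrX:106186850-106187099, plus strand: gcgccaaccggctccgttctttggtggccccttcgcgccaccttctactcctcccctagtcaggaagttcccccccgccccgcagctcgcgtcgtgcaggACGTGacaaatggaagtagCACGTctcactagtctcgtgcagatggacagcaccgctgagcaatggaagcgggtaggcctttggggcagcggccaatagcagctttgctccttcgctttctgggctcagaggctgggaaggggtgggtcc

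The RUNX core began 95 bases before the start in Hk1 and 163 bases before it in Pfkp, while the Pgk1 promoter had hypoxia-response cores at 150 and 131 bases before the start. Across windows from 250 bases before to 50 after each start, both strands searched, the RUNX core was found in 8 of 35 members with a RefSeq promoter (22.9%), against 14.5% of the 9324 tested genes matched and 18.9% of all 27025 genes. Those 8 were Aldoc, Hk1, Hk2, Pcx, Pdha1, Pdk1, Pfkp and Slc2a1. The hypoxia-response core, which overlaps the E-box CACGTG, was in 19 of 35 members (54.3%), against 29.8% of tested and 21.8% of all genes. Counted by promoter, since members had 53 starts in all, the RUNX core was in 15.1% and the hypoxia-response core in 43.4%, against 12.2% and 25.7% of the promoters of tested genes. Of the 8 members with the RUNX core, 7 had positive log2 fold changes, from 0.06 for Pdha1 to 0.51 for Aldoc, and Hk1 was negative at -0.22. None of the 8 passed the test, and whether the core goes with direction was not tested. A match of letters is a description and not a binding site.

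Of both glucose transporters among the 36 genes, only Slc2a1 had reads. From the list of other glycolysis genes, the transporters Slc2a6 (24 to 33 reads per library) and Slc2a8 (5 to 17 reads) were also detected, at lower levels. Slc2a4 also passed the filter, with only 0 to 3 reads per library. Slc2a1 encodes GLUT1, the glucose transporter of most growing cells. It had 70.1 and 63.6 CPM in sgNT and 76.8 and 68.7 in sgCbfb, and the groups overlapped. The log2 fold change was 0.12 (SE 0.11, adjusted p = 0.678, limma).

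In upper glycolysis, 7 of the 9 genes had positive log2 fold changes, with a median of 0.16, and none passed the test. Their summed level was 1593 and 1558 CPM in sgNT and 1682 and 1659 in sgCbfb. Both hexokinases, which trap glucose as glucose 6-phosphate, were at like levels in sgNT. Neither passed the test, and the difference between them was not tested. Hk1, the widespread form, had 299 and 309 reads in sgNT and 309 and 242 in sgCbfb, or 88.0 and 92.7 CPM against 79.1 and 75.9. Its log2 fold change was -0.22 (SE 0.098, adjusted p = 0.281, limma), at 85.9% of sgNT, with both sgCbfb libraries under both sgNT ones. Hk2, the insulin-responsive hexokinase often high in tumours, had 90.4 and 82.5 CPM in sgNT and 92.1 and 101 in sgCbfb. Its groups did not overlap either, and the log2 fold change was 0.16 (adjusted p = 0.491, limma), or 0.09 without the second library of either group. Hk1 also holds an antisense gene, Hk1os, within its locus, and whether reads were counted by strand is not given in the sources used here.

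Phosphofructokinase, the committed step, is built from liver (Pfkl), muscle (Pfkm) and platelet (Pfkp) subunits. Pfkl was the most abundant at 65.4 and 71.7 CPM in sgNT and 67.6 and 66.8 in sgCbfb, with a log2 fold change of -0.03. Pfkp had 59 and 71 reads in sgNT and 111 and 77 in sgCbfb, or 17.4 and 21.3 CPM against 28.4 and 24.1. Both sgCbfb libraries lay above both sgNT ones, the first of them by the most, and the log2 fold change was 0.43 (SE 0.18, 135% of sgNT, adjusted p = 0.250, limma). Pfkm, at 23.6 and 21.3 CPM in sgNT and 29.2 and 26.3 in sgCbfb, also did not overlap, with a log2 fold change of 0.30 (adjusted p = 0.430, limma). The end of the Pfkp locus overlaps that of Pitrm1 on the opposite strand over 748 bases. Pitrm1 had 270 and 274 reads in sgNT and 338 and 273 in sgCbfb, and its part in the Pfkp values was not tested. Opposite-strand genes also reach into the last 300 bases of the annotated loci of Slc2a1, Tpi1, Gapdh, Pdha1 and Mpc1, and a gene of the same strand into those of Pfkfb2. Aldoa is annotated at 2 loci. An opposite-strand gene, Fam57b, overlaps the end of the locus at chr7:126800790-126809108, and none was found at the end of the other, chr7:126795234-126800751.

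Among the other upper genes, Tpi1 encodes triose phosphate isomerase, which interconverts the triose phosphates. It had 282 and 273 CPM in sgNT and 328 and 307 in sgCbfb, from 910 to 1280 reads. The sgCbfb libraries were both higher, with a log2 fold change of 0.19 (SE 0.067, 114% of sgNT, adjusted p = 0.15, limma). Aldoa, the main aldolase, had 814 and 801 CPM in sgNT and 840 and 851 in sgCbfb, a log2 fold change of 0.07 (SE 0.054, adjusted p = 0.638, limma), without overlap. Gpi1, the glucose 6-phosphate isomerase, had 195 to 219 CPM with overlapping groups.

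In lower glycolysis, 4 of the 6 tested genes had negative log2 fold changes, with a median of -0.13, and none passed the test. Summed levels were 3081 and 2974 CPM in sgNT and 2888 and 2875 in sgCbfb. The gap in Pkm alone was larger than the gap in this sum. Pkm encodes the pyruvate kinase that makes pyruvate and ATP in the last step (chr9:59656368-59679375 on GRCm38, plus strand). Pkm had 5762 and 5428 reads in sgNT and 5752 and 4733 in sgCbfb, or 1697 and 1628 CPM against 1472 and 1484. On the deposited scale this was 10.73 and 10.67 log2 CPM in sgNT and 10.52 and 10.54 in sgCbfb, so both sgCbfb libraries lay below both sgNT ones. The log2 fold change was -0.17 (SE 0.050, 95% confidence interval -0.27 to -0.06, 88.9% of sgNT), with an unadjusted p of 0.00269 and an adjusted p of 0.0726 by limma, rank 451 of 12207.

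The call on Pkm depended on the processing, while its direction did not. The adjusted p by limma was 0.0364 with a minimum of 5 CPM (where 5.33% of 9549 genes were called), and 0.0188 with each library centred on its median (2.98% called). It was 0.00371 with voom, limma's method for counts, on recovered reads and library totals (3.72% called), and 9.85e-05 with voom and median-of-ratios scaling (3.42% called). Voom with limma is the method the paper names for differential expression. In the other 8 alternatives it ranged from 0.102 to 1. The log2 fold changes lay between -0.21 and -0.14 in all 12. The study's heatmap, which holds Pkm, shows genes among its top-ranked differentially expressed genes both in MC38 cells and in a mouse breast cancer line. That choice was a cut by rank, which was not applied here. The MC38 part of that choice used these libraries, so the direction of Pkm here is not independent evidence. The table holds 1 value per gene, and the splice forms PKM1 and PKM2 could not be told apart.

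Gapdh and Pgk1 catalyse the consecutive steps after the triose phosphates, and neither passed the test. Gapdh, which oxidises glyceraldehyde 3-phosphate, had 67.4 and 70.8 CPM in sgNT and 89.8 and 78.4 in sgCbfb, with both sgCbfb libraries higher. The log2 fold change was 0.28 (SE 0.11, 121% of sgNT, adjusted p = 0.182, limma), and 0.18 without the first sgCbfb library. Pgk1, the first ATP-yielding enzyme of the pathway, had 162 and 163 reads in sgNT and 136 and 135 in sgCbfb. In CPM it stood at 47.7 and 48.9 against 34.8 and 42.3, both lower in sgCbfb, with a log2 fold change of -0.33 (SE 0.13, 79.7% of sgNT, adjusted p = 0.233, limma). Without the first sgCbfb library the Pgk1 value was -0.19, and without the second it was -0.47.

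**Figure D4:**
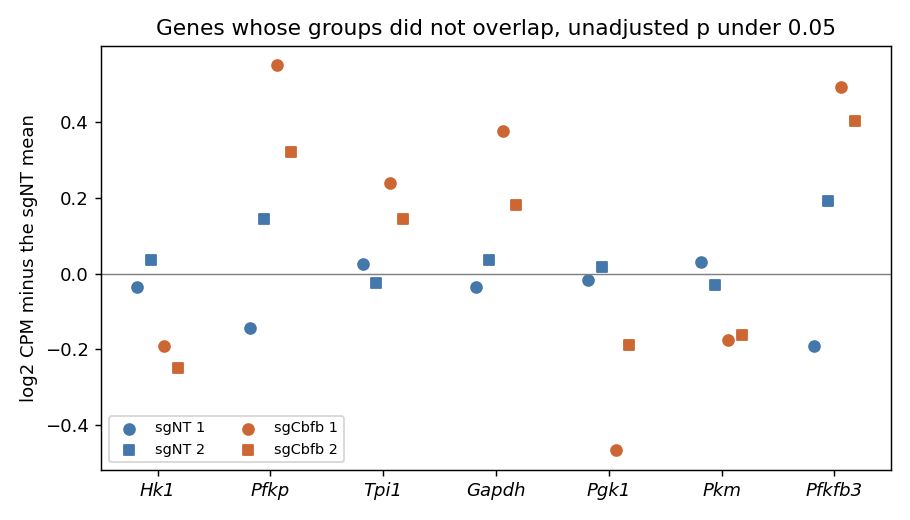
Log2 CPM minus the mean of the sgNT libraries is plotted on the y axis, 1 point per library, for the 7 members (x axis) with an unadjusted p under 0.05 and no overlap between groups. Tpi1, Gapdh, Pfkp and Pfkfb3 are higher in both sgCbfb libraries, and Pkm, Pgk1 and Hk1 are lower in both.

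Gapdh was lower than Tpi1 and Pgam1, and its transcript end is shared with other genes. Pgk1, at 47.7 and 48.9 CPM in sgNT, was lower still without a shared end. Whether the shared end lowered the Gapdh count was not tested. Of the 75-base windows in the last 300 bases of Gapdh, 70.0% matched another annotated transcript exactly, in 46 genes of which 44 are pseudogenes. For Eno1, the main enolase, 86.6% of windows matched, all of them in Eno1b, the only other gene found. Eno1 had only 36 and 28 reads in sgNT and 31 and 22 in sgCbfb, with a log2 fold change of -0.33 (SE 0.28, adjusted p = 0.656, limma; -0.17 without the first sgNT library), and Eno1b had 15 and 21 against 14 and 11. The levels of both Gapdh and Eno1 are uncertain for that reason, since how reads matching several genes were counted is not given in the sources used here. Smaller shares were found for Mpc1 (19.0%), Ldha (8.61%) and Tpi1 (8.19%), and the other 31 members had none. Without the 5 members with shared ends, the median log2 fold change of the 29 left was 0.07.

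Pgam1 and Bpgm complete the lower part. Pgam1, with 3962 to 4915 reads, had a log2 fold change of 0.04 (SE 0.051). Bpgm, which makes 2,3-bisphosphoglycerate, had 21 to 26.8 CPM and overlapping groups.

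Neither lactate dehydrogenase subunit passed the test. Ldha, the lactate dehydrogenase subunit that favours lactate formation, had 574 and 612 CPM in sgNT and 635 and 595 in sgCbfb. The groups overlapped, and the log2 fold change of 0.05 had a 95% confidence interval of -0.07 to 0.17. Ldhb, the heart subunit, had 11.0 to 16.5 CPM.

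Lactate leaves through monocarboxylate transporters, and neither of those measured passed the test. Slc16a1 (MCT1, which works in either direction) had 191 and 182 CPM in sgNT and 166 and 173 in sgCbfb, a log2 fold change of -0.13 (adjusted p = 0.438, limma). Slc16a3 (MCT4, the exporter of highly glycolytic cells) had 143 and 146 CPM in sgNT and 164 and 156 in sgCbfb, a log2 fold change of 0.15 (adjusted p = 0.406, limma). Neither gene's groups overlapped.

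Of the PFKFB enzymes, which set the level of fructose 2,6-bisphosphate, Pfkfb3 was the most abundant. It has high kinase activity and is known for driving glycolysis in tumours. Pfkfb3 had 41 and 53 reads in sgNT and 77 and 59 in sgCbfb, or 12.1 and 15.9 CPM against 19.7 and 18.5. Both sgCbfb libraries were higher, with a log2 fold change of 0.45 (SE 0.21, 136% of sgNT, adjusted p = 0.327, limma). Without the first sgNT library it was 0.26. An antisense gene, Gm10851, lies within its locus. Pfkfb2 and Pfkfb4 had 10 to 20 reads per library, and their log2 fold changes of 0.23 and -0.03 had SEs of 0.35 and 0.37.

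The pyruvate dehydrogenase kinases, which switch the complex off by phosphorylation, all had positive log2 fold changes, with a median of 0.19. Pdk1, a known hypoxia target, had 20.9 and 21.3 CPM in sgNT and 24.3 and 24.1 in sgCbfb, and its groups did not overlap. Its log2 fold change was 0.19 (SE 0.17, adjusted p = 0.676, limma). Pdk3 was the most abundant, at 74.1 to 89.5 CPM with overlap, and Pdk2 had 8 and 8 reads in sgNT and 12 and 13 in sgCbfb.

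Pyruvate entry into mitochondria had a median log2 fold change of 0.04 over 8 genes and summed levels of 462 and 470 CPM in sgNT and 481 and 484 in sgCbfb. The carrier subunit Mpc2 had 51.4 to 52.1 CPM in all 4 libraries and a log2 fold change of 0.00 (SE 0.12). The E1 subunits Pdha1 and Pdhb had log2 fold changes of 0.06 and -0.03, and the E2 subunit Dlat of 0.02. Pdhx, which anchors E3 to the complex, had 32.1 and 32.4 CPM in sgNT and 47.3 and 33.9 in sgCbfb, and its log2 fold change of 0.31 (adjusted p = 0.366, limma) rested on the first sgCbfb library. Without that library the value was 0.07. Pcx, the pyruvate carboxylase that feeds oxaloacetate, had 12.9 to 19.4 CPM with overlapping groups.

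Shares of reads within an isozyme family do not depend on the scaling between libraries, and they were computed for 6 families. Hk2 made up 50.7% and 47.1% of Hk1 plus Hk2 reads in sgNT and 53.8% and 57.1% in sgCbfb, means of 48.9% ± 2.5 and 55.5% ± 2.3 (SD, n = 2). The share was thus 6.58 percentage points higher in sgCbfb, without overlap. In phosphofructokinase, the Pfkl share was 61.5% and 62.7% in sgNT and 54.0% and 57.0% in sgCbfb, and that of Pfkp was 16.3% and 18.6% against 22.7% and 20.6%. Slc16a3 made up 42.8% and 44.6% of the transporter reads in sgNT and 49.7% and 47.4% in sgCbfb. Pfkfb3 took 62.1% and 61.6% of the PFKFB reads in sgNT and 66.4% and 67.8% in sgCbfb. The shares of Ldhb, at 1.81% to 2.62%, and of Pdk1 and Pdk3 overlapped between groups. With 2 libraries against 2, an exact two-sided permutation test cannot go below p = 0.333, and no other test was run on the shares, which are given as a description.

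**Figure D5:**
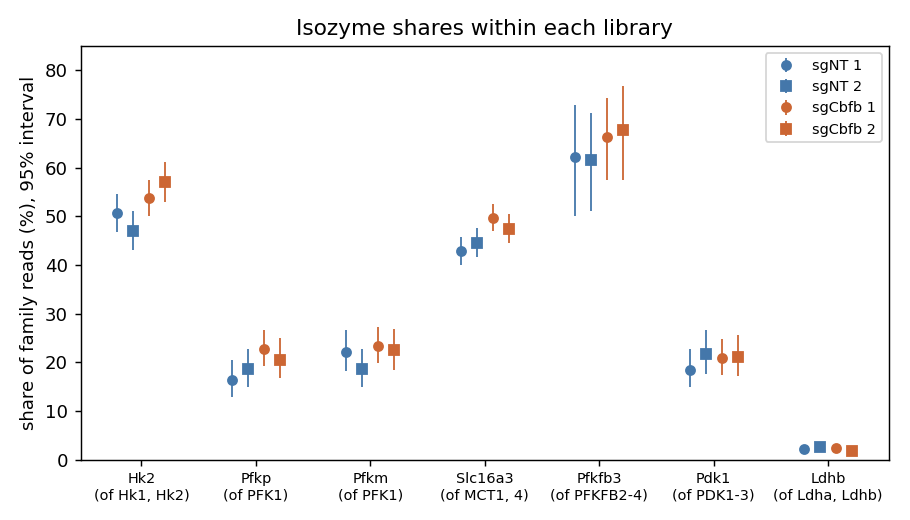
Share of family reads (percent) in each library is given for 7 isozymes of the 6 families, with Wilson 95% intervals that cover counting error only. The sgCbfb points of Hk2 (53.8% and 57.1%) and Slc16a3 (49.7% and 47.4%) lie above both sgNT points.

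Neighbouring pathways were described in the same fit, with 0 genes called in either direction in each list. Across all 12207 tested genes 2.83% were called, a share at which lists of 10 to 22 tested genes would hold few or none. Of 44 other glycolysis and gluconeogenesis genes, largely isozymes of liver, muscle and germ cells, 20 had no reads in any library and 22 were tested, with 14 positive and 8 negative and a median log2 fold change of 0.04. The smallest adjusted p in it was 0.440 by limma, for the mutarotase gene Galm (log2 fold change 0.50). In the pentose phosphate pathway, which branches from glucose 6-phosphate, 11 of 12 genes were tested with a median of -0.03, and Prps2, a phosphoribosyl pyrophosphate synthetase, came closest (log2 fold change 0.43, adjusted p = 0.198, limma). In the tricarboxylic acid cycle, which takes the acetyl-CoA made from pyruvate, 22 of 23 genes were tested, 11 positive and 11 negative. Sdhd, a membrane anchor of succinate dehydrogenase, came closest there with a log2 fold change of -0.46 (adjusted p = 0.190, limma). Of 11 genes of the NADH shuttles and transaminases, which return glycolytic NADH, 10 were tested with a median of 0.04. Gpd1l, a glycerol 3-phosphate dehydrogenase, had 47 and 51 reads in sgNT and 106 and 61 in sgCbfb, a log2 fold change of 0.63 (SE 0.21, adjusted p = 0.120, limma). Medians of these lists lay near the 0.039 of all tested genes, as that of the 34 members did.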

How the data were processed

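RNA of MC38 cells was sequenced as 3′ mRNA libraries (QuantSeq, single-end 75-base reads), 2 per group. According to the methods and the submitters' processing notes, the authors used cutadapt 1.9 for trimming and HISAT2 2.1.0 for alignment to GRCm38/mm10, and counted reads per gene with featureCounts (2.0.1 in the notes). The authors deposited log2 CPM values that include a prior count of 2. The handling of strand and of reads matching several genes, and the annotation used, are not given in the sources used here, and each can change values of paralogs and overlapping genes.

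Groups came from the sample labels. The test was limma 3.58.1 (R 4.3.3; mean-variance trend, two-sided) on the deposited log2 values of 12207 genes with 2 or more libraries at a log2 CPM no lower than 0, with Benjamini-Hochberg adjustment over all of them and a threshold of 0.05. Fold changes are sgCbfb minus sgNT on this scale, which understates changes of low genes. The design allowed for linear values, but they were log2, so no pseudocount was added. Whole reads were recovered for depth and voom (99.9923% to 100% of values within 0.1 of a whole number), and the test was checked on simulated data. Within groups, the ratio of chi-square to degrees of freedom over 9520 genes was 1.58 in sgNT and 2.15 in sgCbfb, a spread beyond counting error, so each library was counted once. This does not tell separate cultures from separate library preparations.

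Named with every library's value are members past the threshold, those with an unadjusted p under 0.05 and no overlap, and Pkm. Genes shown beside them as isozymes or for their role were chosen after values were seen. Members and lists were chosen with earlier results of these data known. Alternatives were no filter, a minimum of 5 CPM, quantile normalization, median centring, no trend, the replicate block, each library left out, and voom with library totals or median-of-ratios factors. Leaving out members with shared 3′ ends was added after seeing the data. Promoters are from RefSeq (GRCm38.p6), and positions and transcript ends from GENCODE M21.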

Additional observations from a re-analysis of the deposited data

How the results depend on the processing

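With 2 libraries per group and 0 to 6 reads for the rarest tested member, Aldoc, small changes in low genes were not detectable at this depth. In the 12 alternative fits (11 for members removed by the stricter filter) 22 of the 34 tested members kept their sign and 12 did not. The count of members called lower was 1, Pkm, instead of 0 with a minimum of 5 CPM (adjusted p = 0.0364), median centring (0.0188, log2 fold change -0.19), voom with library totals (0.00371, -0.17) and voom with median-of-ratios factors (9.85e-05, -0.21), and 0 in the others; the smallest adjusted p of any other member was 0.0931. With one library left out each time, Pkm lay between -0.20 and -0.14 and Cbfb between -1.41 and -1.12. Cbfb, at -1.27, no longer passed with no filter (adjusted p = 0.290) or no trend (0.115), nor when either sgCbfb library was left out (0.267 and 0.193), where the spread comes from the sgNT libraries and the lone library is assumed to vary like them; the cause of the others was not tested.

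The median log2 fold change of the members was 0.029 with voom and median-of-ratios factors and 0.045 to 0.095 with a library left out. Medians also moved for other glycolysis genes (quantile -0.0097, median-of-ratios -0.0055, a library left out 0.035 to 0.096), the pentose phosphate pathway (-0.048 to 0.12 with a library left out), the tricarboxylic acid cycle (quantile -0.019, centring -0.022, median-of-ratios -0.040, a library left out -0.0064 to 0.013) and the NADH shuttles (5 CPM 0.069, quantile 0.019, centring 0.021, median-of-ratios 0.0027, a library left out 0.053 to 0.072). Signs turned for Dlat (quantile -0.0043, centring -0.0010, median-of-ratios -0.024) and Mpc2 (-0.029, -0.022 and -0.040). With a library left out, signs also turned within these ranges: Pfkl -0.093 to 0.039, Aldoc -0.29 to 1.31, Bpgm -0.25 to 0.059, Ldhb -0.40 to 0.068, Pfkfb2 -0.076 to 0.53, Pfkfb4 -0.30 to 0.25, Pdk3 -0.028 to 0.24, Pdhb -0.13 to 0.060, Dlat -0.035 to 0.078, Mpc1 -0.35 to 0.12, Mpc2 -0.0074 to 0.0097 and Pcx -0.14 to 0.41. The cause was not tested.

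Replicate numbers were shared between groups, but over all tested genes deviations from the group means did not go together within a number (correlation -0.0042). Whether a batch was shared within a number for some of the genes was not tested. With the replicate block 0 members were called higher and 0 lower, and Pkm had an adjusted p of 0.109. The pseudocount alternative was not run, since the values were log2 already.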
